A study of Mus musculus with 6 samples.

Results

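The ATF4 stress response and its amino acid synthesis genes were followed in methotrexate-selected mouse mammary carcinoma cells. This module was a named set of 36 genes holding the transcription factor ATF4, the kinases and phosphatase subunits that control its translation, its dimer partners and known targets, and enzymes for serine, asparagine, proline, alanine and cysteine synthesis. A gene was taken as measured where the platform annotation paired a probe set with its symbol alone, and its probe set with the highest mean over all 6 arrays stood for it. In this way 35 of the 36 genes were measured, out of 19933 genes in the table. Pycr1, which encodes a last-step enzyme of proline synthesis, was not analysed here.

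Total RNA of cultured 4T1 cells, a BALB/c mouse line, was measured on 6 Affymetrix arrays of the Mouse Gene 1.0 ST type. Per the labels, MR13 cells (3 arrays) were 4T1 cells selected with 13 µg/ml methotrexate for up to 2 weeks. Selection with this folate antagonist, which blocks dihydrofolate reductase, ran until colonies of surviving cells were seen. WTR- cells (3 arrays) were untreated 4T1 cells. The study itself states a nanomolar concentration and a longer selection, which differ from those in the labels. It also describes a return of the surviving cells to normal medium. Whether the drug was still present at extraction was not given in the labels. MR13 was 1 selected line. Per the labels each line was extracted from wells in triplicate, which the study calls biological replicates, so the p-values measure the spread between these cultures and not between independent selections. The parental medium, per the study's methods, was high-glucose DMEM with serum and added nonessential amino acids.

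Several cell stresses converge on ATF4. Kinases that sense uncharged tRNA, misfolded protein in the endoplasmic reticulum, heme loss or double-stranded RNA phosphorylate the translation factor eIF2, which slows most protein synthesis but lets ribosomes reach the ATF4 reading frame. ATF4 then pairs with C/EBP proteins and other leucine zipper factors on composite C/EBP-ATF response elements (CAREs) and switches on amino acid synthesis and import, tRNA charging, and regulators of growth and cell death. In tumor cells the same enzymes make serine, which feeds the folate cycle, and asparagine, alanine and proline.

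Values are the deposited log2 signals, 1 log2 unit being 2-fold, and differences are MR13 minus WTR-. A gene was called when limma's moderated test gave a Benjamini-Hochberg adjusted p under 0.05 over all 19933 genes. Array medians lay between 6.57 and 6.62, arrays of 1 group correlated at 0.998 to 0.999 and arrays of different groups at 0.984 to 0.987. Of 9 epithelial markers, 8 were lower in MR13, 7 of them at least 2-fold, and the median difference of the 9 was -3.82. The epithelial splicing regulator Esrp1 averaged 5.21 ± 0.33 in MR13 and 10.71 ± 0.04 in WTR- (-5.50), and the tight junction claudin Cldn4 averaged 7.12 ± 0.10 in MR13 and 12.38 ± 0.02 in WTR- (-5.27, SD, n = 3 each). Krt8 was the marker not called (mean 13.53 in MR13 and 13.41 in WTR-). The summed linear signal of the 9 (the bright Krt8 included) was 19519 to 21209 on MR13 and 38446 to 40419 on WTR- arrays. Of 9 fibroblast markers, Pdgfra and Dcn were higher in MR13 and none was lower, with summed signals of 1730 to 1946 in MR13 and 849 to 909 in WTR-. Cd68 was the only one of 7 macrophage markers called (0.35 higher), with summed signals of 739 to 784 in MR13 and 636 to 663 in WTR-, and 5 of 6 lymphocyte and 4 of 6 endothelial markers lay among the dimmest 30% of genes on every array. The part of these marker changes in the results below was not tested, and in bulk RNA fewer cells of a type and less RNA per cell cannot be told apart.

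Most of the module was lower in the drug-selected cells. Of the 35 measured genes, 25 were lower in MR13 (71.4%), 3 were higher (8.57%) and 7 were not called. Over all genes, 20.6% were called lower and 17.0% were called higher. The median difference of the module was -0.47, against 0.01 for all genes. Gpt2, Aldh18a1, Pck2, Trib3, Asns and Nupr1 were at least 2-fold lower (6 of 35 genes, against 2.10% of all genes), and Cebpb was the only one at least 2-fold higher (1.96% of all genes). In 30 of the 35 genes the values of the groups did not overlap, against 47.4% of all genes. The shift was similar on each MR13 array: the median deviation of the 35 genes from their WTR- means was -0.50, -0.44 and -0.41 on MR13 arrays 1, 2 and 3, against -0.00, -0.01 and 0.01 on the WTR- arrays. On these MR13 arrays 29, 27 and 29 of the genes lay below all 3 WTR- values.

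**Figure D1:**
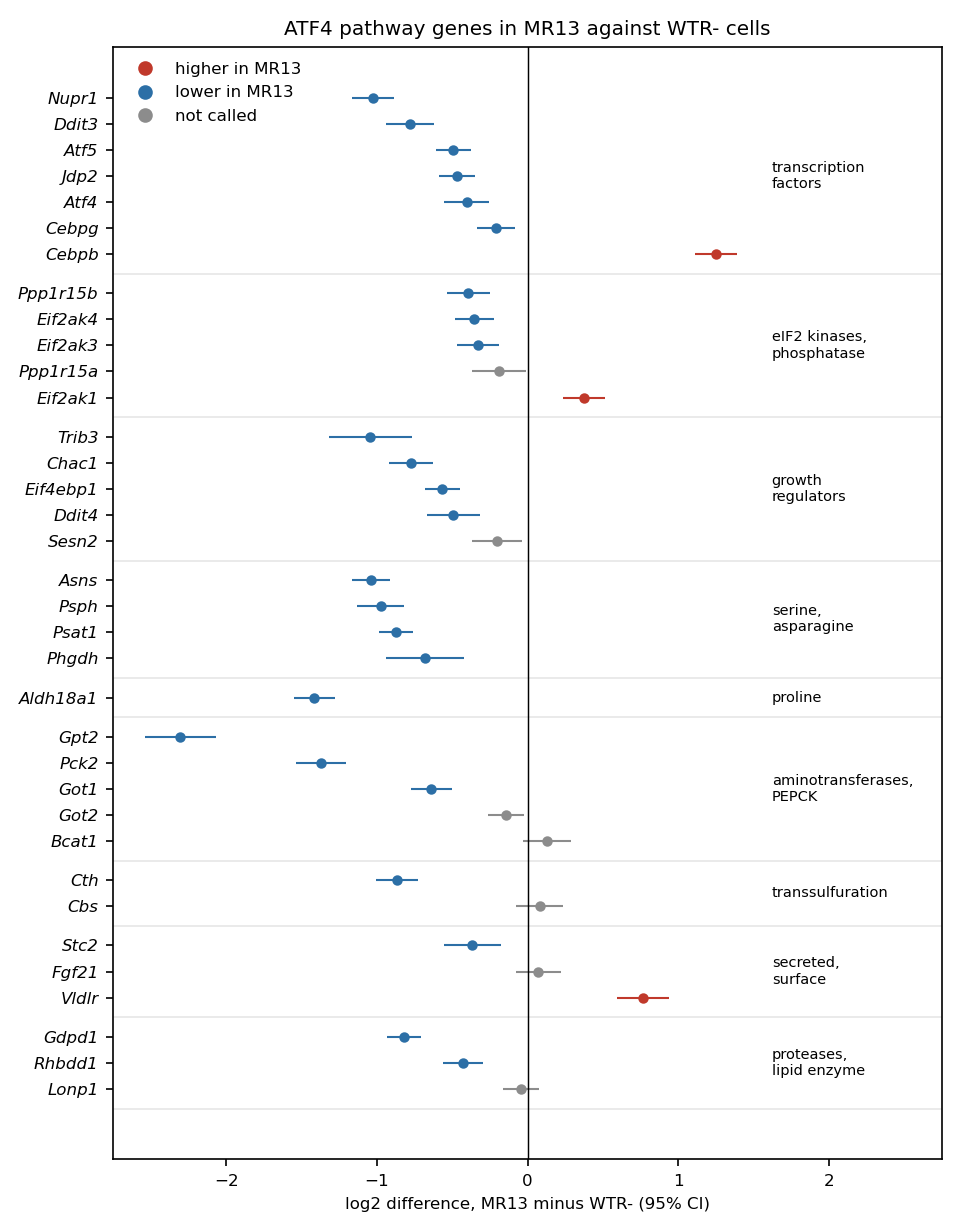
Log2 difference, MR13 minus WTR-, of the 35 measured genes grouped by role, with 95% confidence intervals from limma (3 arrays per line). Points run between -2.30 for Gpt2 and 1.25 for Cebpb, and 25 of them are lower in MR13.

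Some promoters of the module carried the letters of a CARE core. RefSeq promoter windows (250 bases before to 50 after a gene start, GRCm38.p6) were found for 33 of the 36 genes and were searched on both strands for TGATGNAA, the core of a CARE. The core was found in 10 of these 33 genes (30.3%), against 1219 of 27025 genes with a window (4.51%). The genes were gathered as ATF4 targets and regulators, so this share describes how the module was composed and was not tested. The 10 sites, Pycr1 included, are shown so that the matched letters and their flanks can be compared, each with the core in capitals, read 5′ to 3′ in the core's own direction on the strand named.
Chac1 (chr2:119351038-119351067, minus strand): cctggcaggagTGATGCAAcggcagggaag
Trib3 (chr2:152344028-152344057, plus strand): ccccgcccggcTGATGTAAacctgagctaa
Asns (chr6:7693214-7693243, minus strand): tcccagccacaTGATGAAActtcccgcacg
Fgf21 (chr7:45615611-45615640, plus strand): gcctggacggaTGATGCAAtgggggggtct
Nupr1 (chr7:126625562-126625591, plus strand): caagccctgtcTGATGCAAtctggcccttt
Pycr1 (chr11:120643833-120643862, minus strand): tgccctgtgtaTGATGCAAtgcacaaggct
Jdp2 (chr12:85599372-85599401, plus strand): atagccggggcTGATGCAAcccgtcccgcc
Pck2 (chr14:55540152-55540181, minus strand): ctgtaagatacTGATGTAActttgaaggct
Vldlr (chr19:27216809-27216838, minus strand): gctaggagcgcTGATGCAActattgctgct
Got1 (chr19:43524689-43524718, plus strand): ggaggcttgtaTGATGCAAccaatgcaatg
The core read TGATGCAA in 7 genes, TGATGTAA in Trib3 and Pck2, and TGATGAAA in Asns. It began between 200 bases before the gene start, in Vldlr, and 15 bases after it, in Trib3. Of the 9 measured genes with a core, 7 were lower in MR13, Vldlr was higher and Fgf21 was not called, with a median difference of -0.77. Of the 23 measured genes with a window but no core, 15 were lower, 2 were higher and 6 were not called, with a median of -0.37. Differences ran from -1.37 to 0.77 with a core and, more widely, from -2.30 (Gpt2) to 1.25 (Cebpb) without one. The difference between these medians was not tested, and a match of letters is not evidence of binding.

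For 3 of these genes the whole stretch of 250 bases before the start is shown on the gene's own strand, to place the core within the proximal promoter of a chromatin regulator, a mitochondrial enzyme and a glutathione-degrading enzyme that were all lower in MR13. Here the capitals are the reverse complement of the core, since in all 3 it lay on the opposite strand.
Nupr1 (chr7:126625471-126625720, minus strand): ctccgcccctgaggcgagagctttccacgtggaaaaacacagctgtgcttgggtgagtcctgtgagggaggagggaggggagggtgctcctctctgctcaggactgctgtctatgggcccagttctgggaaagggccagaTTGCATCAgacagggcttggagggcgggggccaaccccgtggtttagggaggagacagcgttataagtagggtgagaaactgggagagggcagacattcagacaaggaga
Pck2 (chr14:55540016-55540265, plus strand): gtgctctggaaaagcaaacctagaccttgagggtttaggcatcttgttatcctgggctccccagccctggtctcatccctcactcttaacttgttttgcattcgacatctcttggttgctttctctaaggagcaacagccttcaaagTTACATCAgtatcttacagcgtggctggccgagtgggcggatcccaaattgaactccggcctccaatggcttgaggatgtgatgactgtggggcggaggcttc
Chac1 (chr2:119350992-119351241, plus strand): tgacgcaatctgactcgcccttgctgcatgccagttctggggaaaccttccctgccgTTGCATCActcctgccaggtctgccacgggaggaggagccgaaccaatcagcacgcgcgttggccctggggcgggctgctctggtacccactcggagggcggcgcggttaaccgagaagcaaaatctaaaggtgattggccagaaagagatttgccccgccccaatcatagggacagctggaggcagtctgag
A palindromic cAMP response element, TGACGTCA, was found in Ppp1r15a alone (1 of 33 genes, against 2.03% of all genes with a window). The E-box CACGTG, searched in the same way, was found in Fgf21, Nupr1, Cbs, Lonp1 and Aldh18a1 (15.2%, against 8.09%). No match of one motif overlapped a match of another in these windows.

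**Figure D2:**
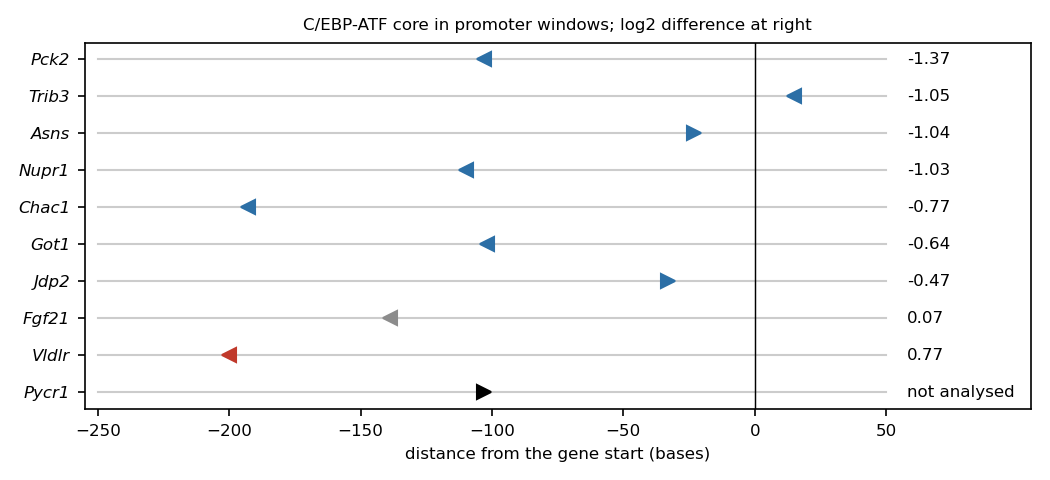
Position of the TGATGNAA core in the promoter windows of 10 genes, as the distance in bases from the gene start, with arrows for its direction relative to the gene (right, same strand). Log2 differences (MR13 minus WTR-) at the right run between -1.37 for Pck2 and 0.77 for Vldlr; blue is lower in MR13, red higher, grey not called and black not analysed here.

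Atf4 mRNA itself was lower in MR13. It stood at 9.55, 9.56 and 9.63 in MR13, against 9.92, 9.92 and 10.11 in WTR-, so the groups did not overlap. The difference was -0.40 (SE 0.07, 95% CI -0.55 to -0.25, 1.32-fold lower, limma adjusted p = 0.00111). ATF4 protein is set largely at translation, and no protein was measured on these arrays.

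Of the 7 transcription factors of the module, 6 were lower and 1 was higher in MR13 (85.7% and 14.3%, against 20.6% and 17.0% of all genes). Ddit3, which encodes the stress-induced, cell death promoting factor CHOP, stood at 7.29, 7.08 and 7.29 in MR13, against 8.06, 7.96 and 7.99 in WTR-. It was 1.72-fold lower (log2 difference -0.78, SE 0.07, adjusted p = 2.73e-05). Nupr1, a small stress-induced chromatin protein, stood at 10.33, 10.39 and 10.30 in MR13, against 11.41, 11.27 and 11.42 in WTR-, and was 2.04-fold lower (-1.03, SE 0.06, adjusted p = 2.24e-06). In both genes every MR13 value lay well below the lowest WTR- value. Atf5, a relative of ATF4 whose translation is controlled in the same manner, averaged 8.82 ± 0.04 in MR13 and 9.31 ± 0.02 in WTR- (SD, n = 3 each, difference -0.49, adjusted p = 6.37e-05). Jdp2, a leucine zipper repressor, averaged 8.41 ± 0.05 in MR13 and 8.88 ± 0.01 in WTR- (difference -0.47, adjusted p = 0.000103). Cebpg, a C/EBP protein that dimerises with ATF4, had the smallest called difference of the module (-0.21, adjusted p = 0.0152), and this call was lost without WTR- array 3 (-0.18, adjusted p = 0.0507).

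Cebpb moved the other way and had the largest rise of the module. This gene encodes C/EBPβ, an ATF4 partner that is also a transcription factor of the interleukin-6 and acute-phase response. Its values were 10.35, 10.53 and 10.42 in MR13, against 9.13, 9.22 and 9.19 in WTR-. The groups were separated by more than 1 log2 unit, and the gene was 2.38-fold higher in MR13 (log2 difference 1.25, SE 0.06, adjusted p = 7.71e-07).

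**Figure D3:**
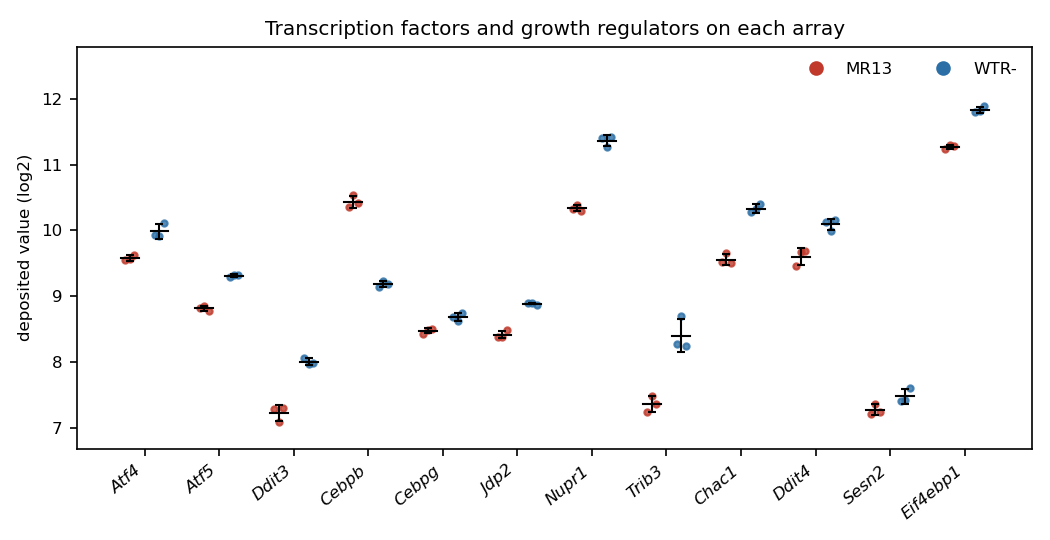
Deposited log2 values of 7 transcription factors and 5 growth regulators on each array, with MR13 left of WTR- for each gene, and the mean ± SD of 3 arrays as bars. Cebpb is the gene with MR13 points above the WTR- points, and Nupr1, Trib3, Ddit3 and Chac1 have the widest gaps in the other direction.

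The kinases that act above ATF4 did not move together. Eif2ak4 encodes GCN2, the sensor of uncharged tRNA, and stood at 7.90, 8.04 and 7.99 in MR13, against 8.32, 8.30 and 8.37 in WTR- (difference -0.35, SE 0.06, adjusted p = 0.000931). Eif2ak3 encodes PERK, the sensor of the endoplasmic reticulum, and stood at 7.70, 7.77 and 7.72 in MR13, against 7.96, 8.15 and 8.07 in WTR- (-0.33, SE 0.06, adjusted p = 0.0025). Eif2ak1 encodes HRI, which responds to heme and to mitochondrial stress, and stood at 9.54, 9.68 and 9.59 in MR13, against 9.30, 9.22 and 9.16 in WTR- (0.38, SE 0.06, adjusted p = 0.000986). Thus GCN2 and PERK mRNAs were lower and HRI mRNA was higher, each with no overlap between the groups, as in 47.4% of all genes. The fourth kinase of the family, the double-stranded RNA sensor Eif2ak2, which is no member of the module, was also higher (8.65 ± 0.04 in MR13 and 8.34 ± 0.06 in WTR-, difference 0.31, adjusted p = 0.00165), and was named after its value was seen.

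Phosphatase subunits reverse the kinases' mark. Ppp1r15b, the constitutive subunit CReP, averaged 8.70 ± 0.08 in MR13 and 9.10 ± 0.07 in WTR- (SD, n = 3 each, difference -0.39, adjusted p = 0.000897), and its other probe set gave -0.22 (adjusted p = 0.0103 over all probe sets with 1 symbol). Ppp1r15a, the ATF4- and CHOP-induced subunit GADD34, averaged 7.26 ± 0.13 in MR13 and 7.46 ± 0.09 in WTR-. Its groups overlapped and the gene was not called (-0.19, 95% CI -0.37 to -0.01, adjusted p = 0.0926), though it was called without MR13 array 2 (-0.26, adjusted p = 0.0274).

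Of 5 genes that restrain growth or report stress downstream of ATF4, 4 were lower (80.0%) and none was higher. Over all genes these shares were 20.6% and 17.0%. Trib3, a pseudokinase that inhibits AKT and feeds back on ATF4 and CHOP, stood at 7.23, 7.48 and 7.35 in MR13, against 8.27, 8.69 and 8.23 in WTR- (difference -1.05, SE 0.12, adjusted p = 0.000133). WTR- array 2 lay above the other WTR- arrays, and MR13 values were still all below the lowest of them. Chac1, which cleaves glutathione, stood at 9.51, 9.66 and 9.50 in MR13, against 10.27, 10.32 and 10.40 in WTR- (-0.77, SE 0.06, adjusted p = 1.72e-05). Eif4ebp1, the inhibitor of the cap-binding factor eIF4E, averaged 11.27 ± 0.03 in MR13 and 11.84 ± 0.05 in WTR- (-0.56, adjusted p = 3.2e-05). Ddit4, whose product REDD1 inhibits the growth kinase complex mTORC1, averaged 9.60 ± 0.13 in MR13 and 10.09 ± 0.09 in WTR- (-0.49, adjusted p = 0.000851). Sesn2, a leucine sensor that also inhibits mTORC1, had a difference of -0.21 and was not called (95% CI -0.37 to -0.04, adjusted p = 0.055). Without MR13 array 2 it was called (adjusted p = 0.0406).

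The serine and asparagine enzymes were lower at every step measured. Serine is made from a glycolytic intermediate by PHGDH, PSAT1 and PSPH in turn, and asparagine is made from aspartate by ASNS. Phgdh stood at 9.58, 9.51 and 9.26 in MR13, against 9.93, 10.14 and 10.33 in WTR- (difference -0.68, SE 0.11, adjusted p = 0.00119). Psat1 stood at 11.57, 11.50 and 11.55 in MR13, against 12.43, 12.38 and 12.43 in WTR- (-0.87, SE 0.05, adjusted p = 1.85e-06). Psph stood at 9.23, 9.39 and 9.37 in MR13, against 10.20, 10.37 and 10.34 in WTR- (-0.97, SE 0.07, adjusted p = 6.3e-06). All 3 steps were therefore between 1.61-fold and 1.96-fold lower, with Phgdh the most variable between wells of both lines. A further probe set that the annotation paired with Phgdh and another symbol was not used. Asns, the textbook amino acid response gene, stood at 11.57, 11.67 and 11.65 in MR13, against 12.65, 12.73 and 12.62 in WTR-, and was 2.05-fold lower (-1.04, SE 0.06, adjusted p = 1.26e-06).

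In the module, proline synthesis was represented by Aldh18a1 alone, which encodes the enzyme that commits glutamate to proline. Its values were 9.46, 9.60 and 9.62 in MR13, against 10.97, 11.01 and 10.94 in WTR-. With a gap of more than 1 log2 unit between the groups, Aldh18a1 was 2.67-fold lower in MR13 (difference -1.42, SE 0.06, adjusted p = 2.94e-07). Outside the module, Pycrl, a relative of Pycr1, was not called (0.12, limma adjusted p = 0.287). Oat, which makes a proline precursor from ornithine, was higher (0.18, limma adjusted p = 0.0321). Both were named after their values were seen.

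Among the aminotransferases, the widest difference of the module was in Gpt2, the mitochondrial alanine aminotransferase. Gpt2 stood at 6.82, 7.23 and 7.20 in MR13, against 9.36, 9.38 and 9.42 in WTR-. It was 4.94-fold lower in MR13 (difference -2.30, SE 0.10, 95% CI -2.54 to -2.07, adjusted p = 4.2e-07) and ranked 70 of the 19933 genes when ordered from the most negative difference. MR13 array 1 was lower than the other MR13 arrays, but the gap to WTR- was far wider than this spread. Pck2, the mitochondrial PEPCK that turns oxaloacetate into phosphoenolpyruvate, stood at 8.22, 8.48 and 8.24 in MR13, against 9.69, 9.68 and 9.68 in WTR- (-1.37, SE 0.07, 2.59-fold lower, adjusted p = 1.21e-06).

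Of the aspartate aminotransferases, the cytosolic one was lower and the mitochondrial one was not called. Got1, the cytosolic enzyme, stood at 10.72, 10.88 and 10.84 in MR13, against 11.51, 11.42 and 11.43 in WTR- (difference -0.64, SE 0.06, adjusted p = 4.15e-05). Its mitochondrial counterpart Got2 stood at 12.85, 12.91 and 12.93 in MR13, against 13.08, 13.05 and 13.00 in WTR-, and was not called (-0.14, 95% CI -0.26 to -0.02, adjusted p = 0.0601). Got2 values did not overlap, its other probe set gave the same difference of -0.14, and 4 of 13 alternative settings called it lower. Bcat1, the cytosolic branched-chain aminotransferase, stood at 5.73, 5.61 and 5.61 in MR13, against 5.62, 5.40 and 5.55 in WTR-. Its groups overlapped at a dim level and it was not called (0.13, 95% CI -0.03 to 0.29, adjusted p = 0.202). Whether the change of Got1 exceeded that of Got2 was not tested.

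Transsulfuration builds cysteine from homocysteine in a pair of steps, of which the closing one was lower. Cth, the cystathionine gamma-lyase, stood at 9.56, 9.65 and 9.65 in MR13, against 10.40, 10.51 and 10.55 in WTR- (difference -0.86, SE 0.06, 1.82-fold lower, adjusted p = 6.19e-06). Cbs, the cystathionine beta-synthase before it, stood at 6.55, 6.45 and 6.60 in MR13, against 6.56, 6.42 and 6.36 in WTR-. The Cbs groups overlapped and the gene was not called (0.08, 95% CI -0.08 to 0.24, adjusted p = 0.427).

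**Figure D4:**
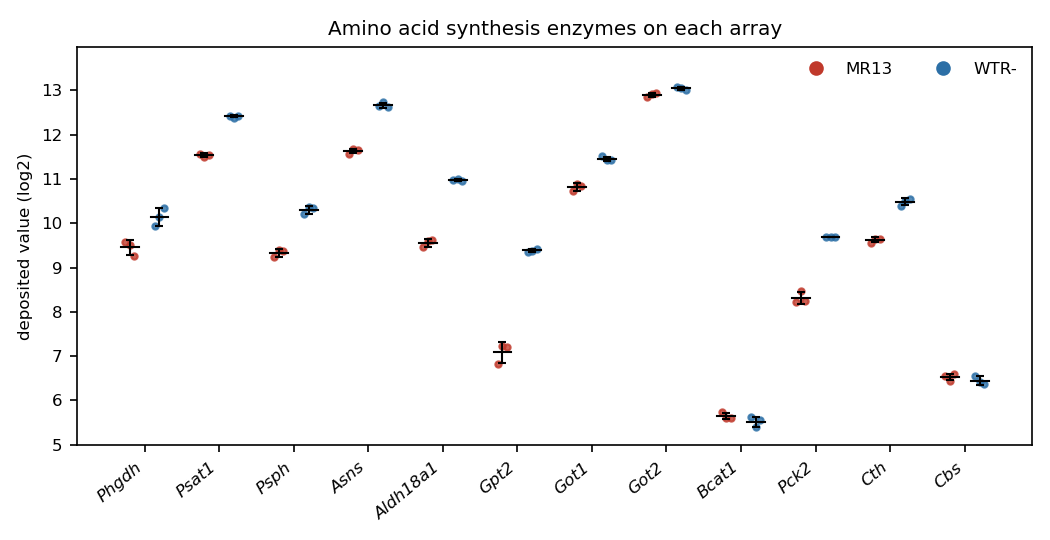
Deposited log2 values of 12 amino acid synthesis enzymes on each array, with MR13 left of WTR- for each gene, and the mean ± SD of 3 arrays as bars. Gpt2, Aldh18a1 and Pck2 show the widest gaps, with MR13 below WTR-, while Bcat1 and Cbs overlap.

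The secreted and surface proteins of the module went different ways. Vldlr, the very low density lipoprotein receptor, stood at 6.01, 6.06 and 5.92 in MR13, against 5.37, 5.12 and 5.21 in WTR-. The gene was 1.70-fold higher (difference 0.77, SE 0.07, adjusted p = 4.86e-05), with all 3 WTR- values among the dimmest 30% of genes of their arrays. Stc2, a secreted stanniocalcin, was lower at 5.73 ± 0.08 in MR13 and 6.10 ± 0.16 in WTR- (SD, n = 3 each, -0.37, adjusted p = 0.00706). Fgf21, a stress-induced hormone, averaged 5.44 ± 0.09 in MR13 and 5.38 ± 0.07 in WTR- and was not called (0.07, 95% CI -0.08 to 0.22, adjusted p = 0.468), and 2 MR13 and 3 WTR- arrays held it among the dimmest 30%. No detection calls were used, so whether Fgf21 was expressed in either line was not known.

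Of the remaining 3 genes, 2 were lower (66.7%, against 20.6% of all genes). Gdpd1, a glycerophosphodiesterase that acts on lysophospholipids, stood at 9.89, 9.91 and 9.95 in MR13, against 10.73, 10.73 and 10.77 in WTR- (difference -0.82, SE 0.05, 1.77-fold lower, adjusted p = 2.52e-06). Rhbdd1, a rhomboid protease of the endoplasmic reticulum, averaged 8.99 ± 0.08 in MR13 and 9.41 ± 0.03 in WTR- (SD, n = 3 each, -0.43, adjusted p = 0.000343). Lonp1, the protease of the mitochondrial matrix, averaged 8.92 ± 0.05 in MR13 and 8.96 ± 0.03 in WTR-, and was not called (-0.04, 95% CI -0.16 to 0.08, adjusted p = 0.598).

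Of the further ATF4 targets listed outside the module, most were lower, among them all of the folate enzymes. This list was chosen with earlier results of these data known, so it gives no independent support. Of 35 further targets measured (of 38 listed), 20 were lower (57.1%), 6 were higher (17.1%) and 9 were not called, with a median difference of -0.25. The shares over all genes were 20.6% lower and 17.0% higher. All 4 folate enzymes of this list were lower, with a median of -1.19. Mthfd2, the mitochondrial methylenetetrahydrofolate dehydrogenase, stood at 9.51, 9.74 and 9.75 in MR13, against 11.17, 11.22 and 11.20 in WTR- (-1.53, SE 0.07, adjusted p = 5.48e-07). Aldh1l2, which oxidises formyl-tetrahydrofolate in mitochondria, averaged 5.32 ± 0.05 in MR13 and 6.63 ± 0.23 in WTR- (-1.31), and its MR13 values were all among the dimmest 30%. Of 10 aminoacyl-tRNA synthetases, which load tRNAs with amino acids, 8 were lower, none was higher and 2 were not called, with a median of -0.63.

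The amino acid transporters of the same list were mixed, with 5 lower (55.6%), 3 higher (33.3%) and 1 not called. The shares over all genes were 20.6% and 17.0%. Slc7a11, the cystine importer of system xc-, was named after its value was seen because it opposed most of the list: it stood at 11.86, 11.83 and 11.85 in MR13, against 10.90, 10.86 and 11.06 in WTR- (0.90, SE 0.06, adjusted p = 6.3e-06). The glutamine carrier Slc1a5, named in the same way, was lower (-0.79). Of the other 12 targets, 3 were lower, 3 were higher and 6 were not called.

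**Figure D5:**
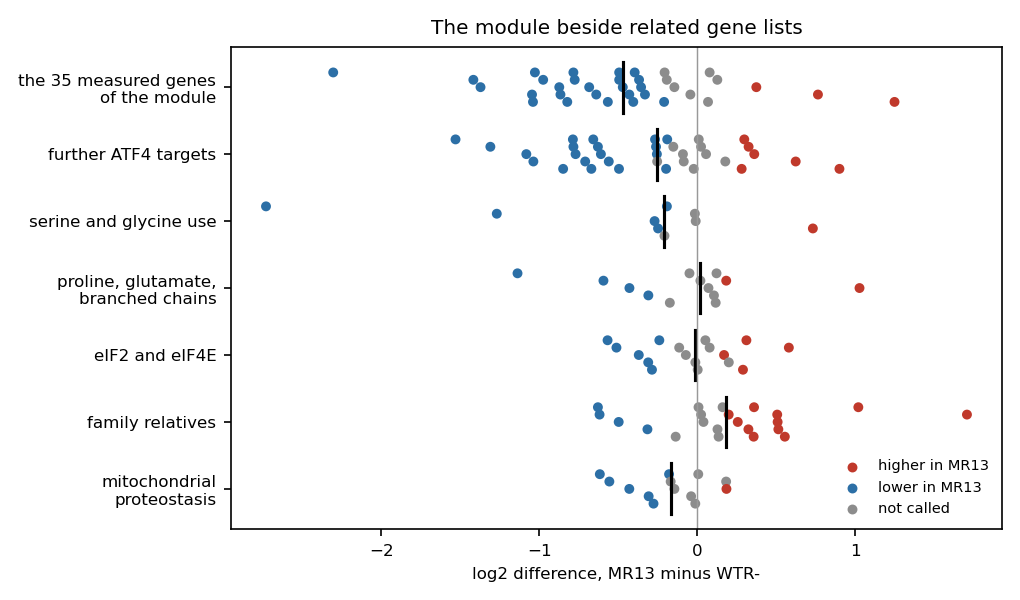
Log2 differences, MR13 minus WTR-, of the 35 measured genes and of 6 related gene lists, 1 point per gene, with black bars at the list medians. The medians are -0.47 for the module, -0.25 for further ATF4 targets and 0.18 for family relatives.

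In the routes next to serine and proline the called genes were split, and 4 of them differed by at least 2-fold. Of 9 neighbours in serine and glycine use, 5 were lower (55.6%), 1 was higher (11.1%) and 3 were not called (median -0.21). The shares over all genes were 20.6% lower and 17.0% higher. Gatm, the glycine amidinotransferase that starts creatine synthesis, stood at 4.53, 4.62 and 4.52 in MR13, against 7.26, 7.32 and 7.28 in WTR- (-2.73, SE 0.05, adjusted p = 4.02e-09), with all MR13 values among the dimmest 30%. Gcsh, the H protein of the glycine cleavage system, was 1.27 log2 units lower (7.16, 6.98 and 7.03 in MR13, against 8.26, 8.23 and 8.48 in WTR-). Of 13 further genes of proline, glutamate and branched-chain amino acid use, 4 were lower (30.8%), 2 were higher (15.4%) and 7 were not called (median 0.02). Prodh, which breaks proline down, was lower along with the synthesis enzyme Aldh18a1 (6.84 ± 0.04 in MR13 and 7.98 ± 0.08 in WTR-, -1.14, adjusted p = 1.07e-06). Glul, the glutamine synthetase, was higher (10.68 ± 0.03 in MR13 and 9.65 ± 0.06 in WTR-, 1.03, adjusted p = 1.17e-06).

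The rest of the eIF2 and eIF4E apparatus was split, with 6 of 17 genes lower, 4 higher and 7 not called (median -0.01). Thus 35.3% were lower and 23.5% higher, against 20.6% and 17.0% of all genes. Dnajc3, a chaperone and inhibitor of eIF2 kinases, was 0.58 higher (10.78 ± 0.02 in MR13 and 10.19 ± 0.01 in WTR-), and Eif2b5, a subunit of the guanine exchange factor that recharges eIF2, was 0.57 log2 units lower in MR13 (9.21 ± 0.13 in MR13 and 9.78 ± 0.07 in WTR-). Of 13 genes listed for mitochondrial proteostasis, 6 were lower (46.2%), 1 was higher (7.69%) and 6 were not called (median -0.17). The lower calls were led by the proteases Htra2 (-0.62) and Spg7 (-0.56). This list also held the peroxisomal Lonp2 (-0.43, lower) and the cytosolic PEPCK Pck1 (-0.01, not called), which lie outside mitochondrial proteostasis.

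Among relatives of the module's genes by family, higher calls outnumbered lower ones. Of 22 measured paralogues and partners (other ATF, C/EBP, sestrin, tribbles and stanniocalcin genes among them), 11 were higher, 4 were lower and 7 were not called, with a median of 0.18. Over all genes, 17.0% were higher and 20.6% were lower, so the lower share of this list (18.2%) was close to that of all genes. Atf3, which was lower, was counted both here and among the further ATF4 targets. Stc1 was 3.27-fold higher, at 10.50, 10.52 and 10.49 in MR13, against 8.84, 8.79 and 8.75 in WTR- (1.71, SE 0.05, adjusted p = 3.71e-08), whereas Stc2 was lower. Trib2 stood at 10.52, 10.77 and 10.61 in MR13, against 9.72, 9.57 and 9.54 in WTR- (1.02, SE 0.08, adjusted p = 1.11e-05), whereas Trib3 was lower. The difference between paralogues was not tested in either pair.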

How the data were processed

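The deposited values were log2 signals, 1 per probe set and array, which the authors had normalized between arrays. The submitters' processing notes name the R packages affy and limma. For versions, background correction and normalization method the sources used here give nothing. The table held 28350 probe sets, of which 21780 had 1 symbol in the platform annotation, 1618 had several (not used) and 4952 were unnamed here. The brightest probe set stood for each of 19933 genes. Groups came from the sample titles.

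All genes were fitted together with limma 3.58.1 (lmFit and eBayes, R 4.3.3) on 6 arrays, MR13 minus WTR-, without covariates, and p-values were two-sided. The scripts were tested on simulated data. Values on every array are given for Atf4, for called genes of the module whose groups did not overlap and that differed by at least 0.58, and for genes set against them (other enzymes of a pathway, and the 3 eIF2 kinases beside each other). Of each other list the 2 largest called differences with no overlap between the groups are named. The gene set and the lists were chosen with earlier results of these data known. Alternatives for the values were quantile normalization, median centring, leaving out the dimmest 30% of genes and averaging a gene's probe sets. For the test they were a trended prior, the methods' t-test, the replicate number as a block and each array left out. A 2-fold minimum was counted apart from these 13 alternatives. Array number limits the precision, and background signal in each value can understate differences of dim genes. Values were ranked against the other genes of an array only to mark the dimmest 30%, and signals were summed only within marker lists.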

Additional observations from a re-analysis of the deposited data

How the results depend on the processing

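Under 13 alternatives the count of genes lower in MR13 lay between 24 and 27 of 35 and the count higher was 3. Requiring a difference of at least 2-fold left 6 lower and 1 higher. The module's median difference of -0.47 was -0.40 after quantile normalization and -0.43 after median centring, and lay between -0.47 and -0.42 when each array was left out in turn. Of the 35 genes, 29 kept their call and direction under every alternative in which they were tested, the 2-fold minimum aside. Fgf21 was among the dimmest genes left out and so had 12 alternatives. Lonp1 turned to 0.0142 after quantile normalization (adjusted p = 0.849, not called). Cebpg was also lost after quantile normalization (adjusted p = 0.0559) and Stc2 with the methods' t-test (adjusted p = 0.0639), Got2 was called lower by 4 alternatives, and Sesn2 was called with the dimmest genes left out (adjusted p = 0.0337). For these the cause was not tested. The 17 genes of other lists named by rule, markers included, kept theirs. Genes named after their values were seen were not run under the alternatives.

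The labels tie the replicate numbers to nothing shared. Deviations of same-numbered arrays correlated over genes at 0.128, -0.0012 and 0.182 for numbers 1, 2 and 3. Those of unlike-numbered arrays correlated between -0.197 and 0.0529. Numbers 1 and 3 thus lay above every unlike pair and number 2 did not, and a shared replicate effect was not tested. With the replicate block, 25 genes were lower and 3 higher, the median was -0.47, and 7442 of all genes were called against 7497 without it. No background level was measured, so how far it compresses the differences of dim genes such as Fgf21 is not known.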
